A study of Mus musculus with 20 samples.

Results

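The signals described here were the transforming growth factor beta (TGF-beta), activin and bone morphogenetic protein (BMP) genes of mouse kidney after loss of *Pkd2*. The 10 genes were taken by name from the table of read counts, which held 24411 genes: the TGF-beta ligands *Tgfb1*, *Tgfb2* and *Tgfb3*, the TGF-beta receptors *Tgfbr1* and *Tgfbr2*, the activin subunits *Inhba* and *Inhbb*, and the BMP ligands *Bmp4*, *Bmp6* and *Bmp7*. They were chosen with earlier results of these data known, so their counts and medians beside all genes are descriptive and not independent evidence. All 10 had counts in all 20 mice. Over both sexes *Tgfb1*, *Tgfb3*, *Tgfbr2* and *Inhbb* passed the test as higher in mutants, as did 10.0% of all genes tested. *Tgfb2*, *Tgfbr1* and the 3 BMP ligands did not pass. *Inhba* was near the detection limit in controls and higher in mutants of each sex. Its counts were too low for the main tests in males and over both sexes. In females alone none of the 10 passed, where 0.457% of all genes tested passed as higher.

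Bulk kidney RNA, 1 library per mouse, was sequenced from 20 mice at P125 (postnatal day), with 5 male controls (MC1 to MC5), 5 male mutants (MM1 to MM5), 5 female controls (FC1 to FC5) and 5 female mutants (FM1 to FM5). All mice were C57BL/6 and homozygous for the floxed *Pkd2* allele (*Pkd2*fl/fl), and all received doxycycline (DOX), 50 mg per kg by daily injection from P27 to P29. Mutants also carried *Pax8*rtTA and *TetO*Cre, and controls, their littermates, lacked either *Pax8*rtTA or *TetO*Cre. The *Pax8* promoter drives rtTA in tubule epithelium, from proximal tubule to collecting duct, so that Cre was induced in the tubules while RNA of all kidney cells was sequenced. The mice came from 3 litters (A, B and C), and each group held mice of every litter. Kidney to body weight (KBW), the weight of 1 kidney as a percentage of body weight, was 0.692% ± 0.117 (SD, n = 5) in male controls, 1.68% ± 0.338 in male mutants, 0.615% ± 0.0448 in female controls and 1.18% ± 0.261 in female mutants.

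TGF-beta, activins and BMPs are secreted dimers of 1 protein family. Each binds a pair of type II and type I serine/threonine kinase receptors, which phosphorylate Smad2 and Smad3 for TGF-beta and activin, or Smad1, Smad5 and Smad9 for BMPs, and these enter the nucleus with Smad4. TGF-beta is secreted in a latent complex and is best known in the kidney for matrix deposition by interstitial cells, activin A is a dimer of the *Inhba* product, and BMP7 is needed for nephron formation.

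The libraries held 11307741 to 19324073 counts (median 15813304.5). Female mutant FM4 stood apart: its library was the smallest, 14850 genes were detected in it against 16776 to 17724 in the other 19, and 76 genes had exactly 1 count in it against 708 to 859. Where leaving out FM4 changed a call given here, the result without it is given too. Levels are CPM, counts relative to the library total after scaling by the trimmed mean of M-values (TMM). A gene was called at a Benjamini-Hochberg adjusted p under 0.01 over all genes tested, by the quasi-likelihood test of edgeR, with a litter term. *Pkd2* itself, whose counted exons were not given in the sources used here, was 110 to 133 CPM in male mutants against 250 to 332 in male controls. In females *Pkd2* was 93.4 to 181 CPM in mutants against 193 to 306 in controls, with no overlap in either sex. Its log2 fold change over both sexes was −1.06 (SE, standard error, 0.12, adjusted p = 1e-05).

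The promoter sequences are shown for *Tgfb1*, *Tgfbr2* and *Inhbb*, which were called higher in mutants over both sexes, for *Inhba*, whose levels in mutants lay above those of all controls of the same sex, and for *Tgfb2*, which differed between the sexes. RefSeq entries were matched for 8 of the 10 genes, all but *Tgfb3* and *Bmp7*. Each line gives the 250 bases before the annotated start (GRCm38.p6), 5′ to 3′ on the gene's strand, and capitals mark matches on either strand to the GC box (GGGCGG), the TATA box (TATAAA), the E-box (CACGTG) and the Smad box (CAGAC). The lines are *Tgfb1*, chr7:25686752-25687001, plus strand; *Tgfb2*, chr1:186705990-186706239, minus strand; *Tgfbr2*, chr9:116175364-116175613, minus strand; *Inhba*, chr13:16011601-16011850, plus strand; and *Inhbb*, chr1:119422249-119422498, minus strand.
Tgfb1: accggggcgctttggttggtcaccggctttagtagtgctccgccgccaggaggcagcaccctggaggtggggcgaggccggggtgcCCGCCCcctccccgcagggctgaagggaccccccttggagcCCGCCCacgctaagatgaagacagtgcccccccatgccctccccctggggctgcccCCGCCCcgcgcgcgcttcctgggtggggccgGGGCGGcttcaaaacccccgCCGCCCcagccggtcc
Tgfb2: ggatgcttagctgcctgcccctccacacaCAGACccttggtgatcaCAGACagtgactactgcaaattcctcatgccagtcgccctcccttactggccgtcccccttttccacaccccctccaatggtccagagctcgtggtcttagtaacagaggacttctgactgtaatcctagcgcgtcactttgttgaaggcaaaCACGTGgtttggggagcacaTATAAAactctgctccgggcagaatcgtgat
Tgfbr2: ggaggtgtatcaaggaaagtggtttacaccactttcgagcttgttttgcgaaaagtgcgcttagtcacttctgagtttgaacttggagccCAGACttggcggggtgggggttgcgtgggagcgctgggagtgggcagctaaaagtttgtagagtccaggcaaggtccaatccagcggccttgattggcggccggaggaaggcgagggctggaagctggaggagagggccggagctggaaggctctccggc
Inhba: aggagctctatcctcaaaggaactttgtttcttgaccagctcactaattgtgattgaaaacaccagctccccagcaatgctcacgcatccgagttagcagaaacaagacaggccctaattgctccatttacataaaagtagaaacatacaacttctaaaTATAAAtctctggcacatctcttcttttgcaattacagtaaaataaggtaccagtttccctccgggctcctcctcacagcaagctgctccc
Inhbb: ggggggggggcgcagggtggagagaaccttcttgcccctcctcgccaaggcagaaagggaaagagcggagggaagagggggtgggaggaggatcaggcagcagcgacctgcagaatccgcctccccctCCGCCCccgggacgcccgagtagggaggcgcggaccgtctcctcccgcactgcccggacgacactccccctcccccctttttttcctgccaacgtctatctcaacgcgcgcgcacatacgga

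These promoters differed in base composition. The window of *Tgfb1* was 75.2% G and C and held 5 GC boxes, that of *Inhbb* was 68% G and C with 1 GC box, and that of *Inhba* was 43.2% G and C with a TATA box whose first base lay 91 bases before the start. The window of *Tgfb2* held a TATA box 31 bases before the start, an E-box 51 bases before it and 2 Smad boxes, and that of *Tgfbr2* held 1 Smad box. Of the 32851 mouse promoters in the table, cut to the same length, 12.4% held the TATA box, 32.7% the GC box, 6.02% the E-box and 42.2% the Smad box, and the median share of G and C was 52.4%. The letters TGAGTCA (AP-1 site, in 4.46% of promoters) and TGACGTCA (cAMP response element, in 1.55%) were searched on both strands too and were not in the windows of the 8 genes. No match shared a base with another. A match is a run of letters and not evidence of binding.

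Per kilobase of exon (GENCODE M21 exons, not necessarily those the authors counted), the BMP ligands and the TGF-beta receptors were the more abundant members, and *Tgfb2*, *Tgfb3* and the activin subunits the less abundant. In male controls the order of mean levels was *Bmp4* (20.8 ± 2.79 CPM per kb, SD, n = 5), *Bmp6* (16.9 ± 2.34), *Tgfbr1* (13.1 ± 1.67), *Bmp7* (12.3 ± 0.387), *Tgfbr2* (11.1 ± 0.943), *Tgfb1* (5.43 ± 0.667), *Inhbb* (0.846 ± 0.254), *Tgfb2* (0.583 ± 0.0942), *Tgfb3* (0.461 ± 0.073) and *Inhba* (0.0221 ± 0.00692). Neighbours in this order lay within the sum of their SDs, except *Tgfbr2* above *Tgfb1*, *Tgfb1* above *Inhbb* and *Tgfb3* above *Inhba*. In female controls *Tgfb2* (1.83 ± 0.223 CPM per kb) stood above *Inhbb* (1.02 ± 0.203) and *Tgfb3* (0.934 ± 0.161), and the order was otherwise that of the males. In mutants of both sexes *Inhbb* (3.17 ± 1.55 in males and 3.27 ± 1.74 in females) stood above *Tgfb2* and *Tgfb3*, and *Tgfbr2* (17.1 ± 2.39 and 15.9 ± 5.4) stood above *Bmp7*.

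**Figure D1:**
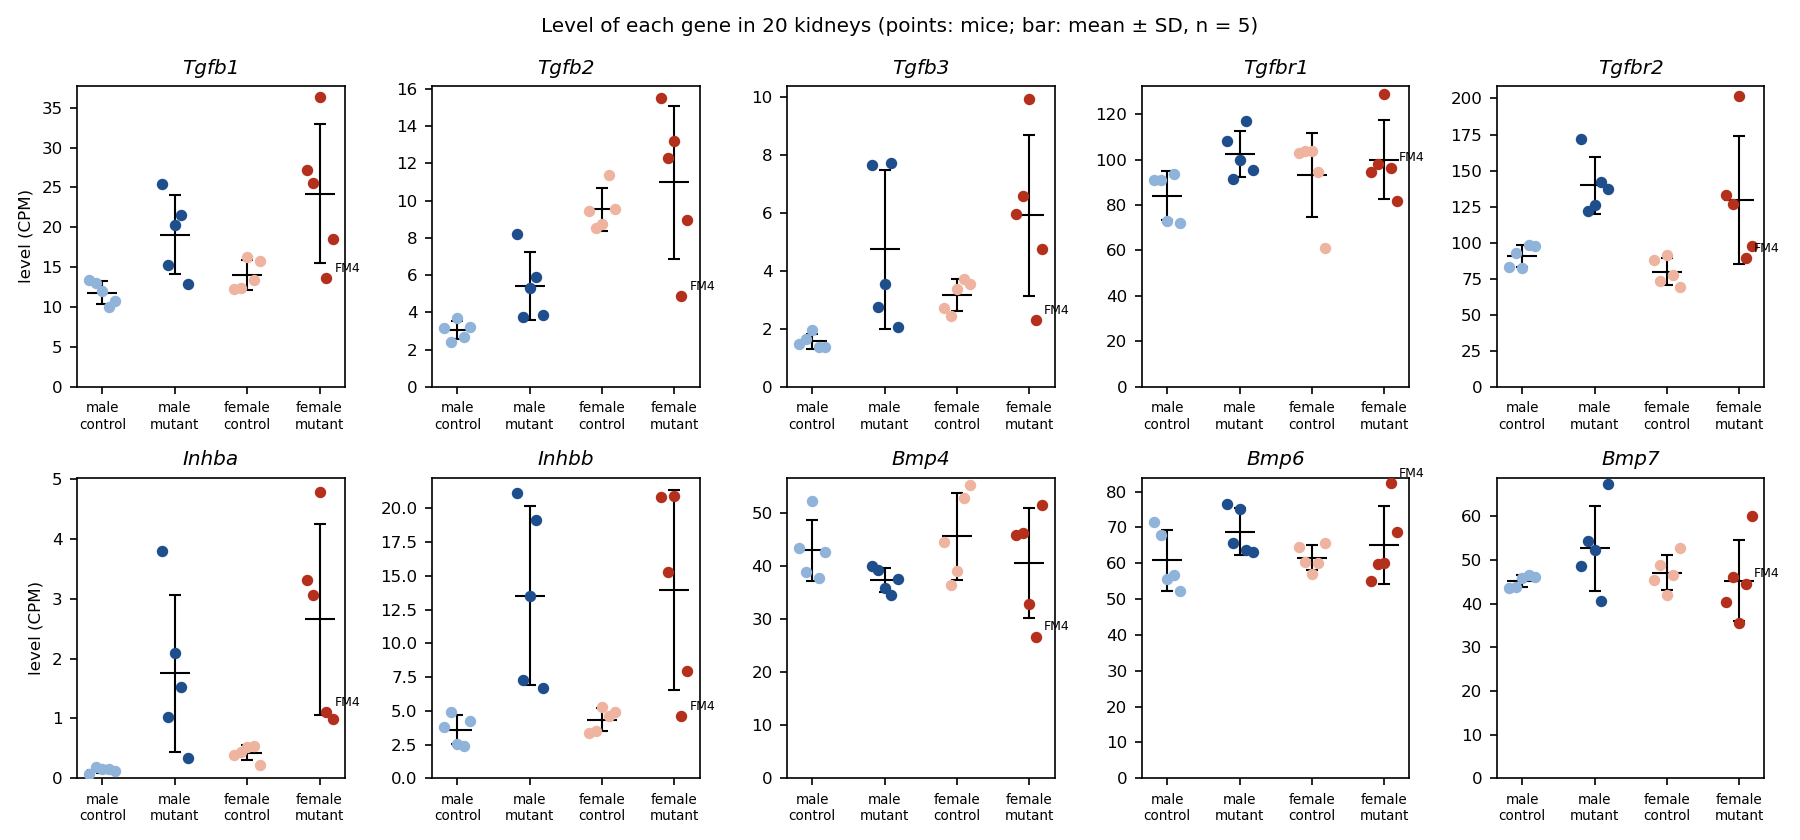
Level of each of the 10 genes in CPM (vertical axis, from 0) in each of 20 mice (points), by group (horizontal axis), with the mean and SD of the 5 mice (black bars) and female mutant FM4 named. *Tgfbr2* in males lies at 122 to 172 CPM in mutants and 82.2 to 98.5 in controls, while the points of *Bmp4*, *Bmp6* and *Bmp7* overlap between genotypes.

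Mutants and controls were first compared within each sex, to find what loss of *Pkd2* changed in males and in females, and then over both sexes with sex and litter as covariates. The comparison over both sexes shares its mice with the other 2 and is not a further test of them. In males 2 of the 9 members tested were called, both higher (*Tgfbr2* and *Inhbb*), and none lower. Of all 14010 genes tested in males, 5.25% were called higher and 3.20% lower. In males DESeq2 called 5 (*Tgfb1*, *Tgfb3*, *Tgfbr2*, *Inhba* and *Inhbb*), a count not set beside the share of all genes that DESeq2 called. In females 0 of 10 members were called, where 0.457% of 14439 genes were called higher and 0.180% lower. At an unadjusted p under 0.05, 5 of the 10 were higher in female mutants (*Tgfb1*, *Tgfb3*, *Tgfbr2*, *Inhba* and *Inhbb*), against 12.4% of all genes. DESeq2 called 3 (*Tgfbr2*, *Inhba* and *Inhbb*), a count not set beside the share of all genes that DESeq2 called. Without FM4, edgeR called 4 in females (*Tgfb1*, *Tgfbr2*, *Inhba* and *Inhbb*), where 4.68% of all genes were called higher. *Inhba* entered the edgeR tests in females through its counts in mutants alone. Over both sexes 4 of 9 members were called, all higher (*Tgfb1*, *Tgfb3*, *Tgfbr2* and *Inhbb*), against 10.0% of 14191 genes called higher and 5.86% called lower. The median log2 fold change of the members tested was 0.61 in males, 0.48 in females and 0.48 over both sexes, beside medians of −0.002, −0.0029 and −0.0117 over all genes.

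Every male mutant was above every male control for 5 of the 10 members (*Tgfb2*, *Tgfb3*, *Tgfbr2*, *Inhba* and *Inhbb*), which was 4 of the 9 members tested (*Inhba* was not), beside 8.83% of all genes tested in males. In females this held for 1 of 10 (*Inhba*), against 3.60% of genes. *Inhba* was among the genes tested in females only through its counts in mutants, so its place in that count is not independent support. Over both sexes, with all 10 mutants set against all 10 controls, it held for none of the members and for 0.979% of genes. Fewer cells of a type and less RNA per cell cannot be told apart in these whole-kidney libraries.

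**Figure D2:**
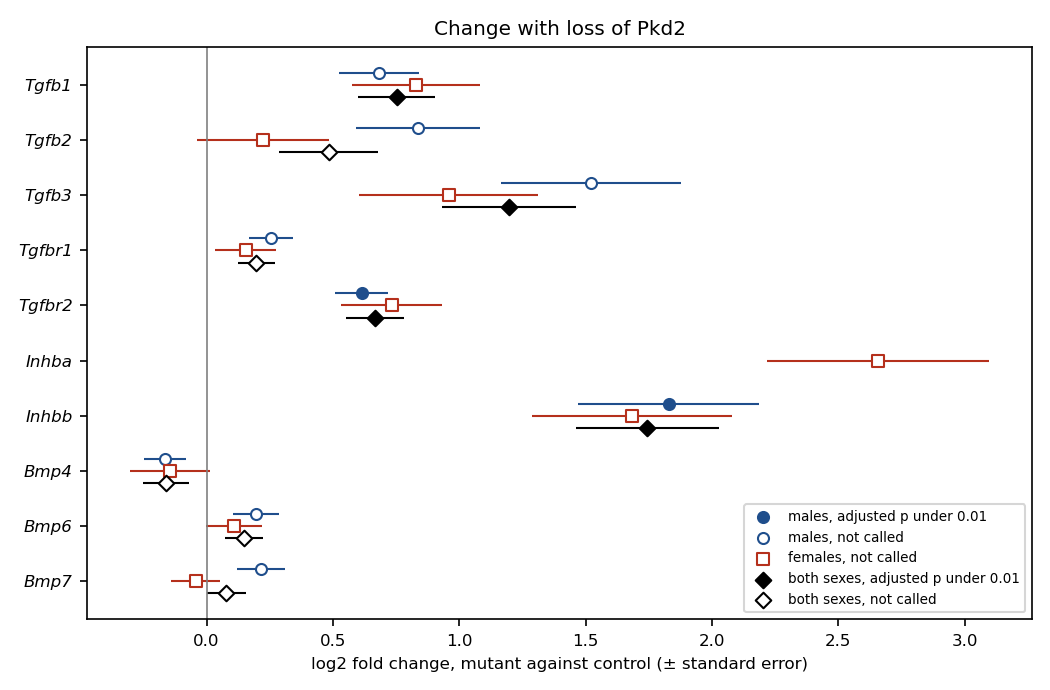
Log2 fold change of mutants against controls (horizontal axis, with standard error) for each gene, in males (blue circles), females (red squares) and both sexes (black diamonds). Filled symbols are adjusted p under 0.01; *Inhbb* lies at 1.68 to 1.83 in the 3 comparisons and the 3 BMP genes lie between −0.17 and 0.22. *Inhba* passed the filter on low counts in females only.

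*Tgfb1*, the most widely expressed TGF-beta ligand, lies on chromosome 7 of GRCm38 (25687002 to 25705077, plus strand). Its level was 13.4, 13, 12, 9.98 and 10.7 CPM in male controls and 25.4, 15.3, 20.3, 21.5 and 12.9 CPM in male mutants (mice 1 to 5). In females it was 12.3, 12.4, 16.3, 13.4 and 15.8 CPM in controls and 27.2, 25.5, 36.4, 13.6 and 18.5 CPM in mutants. Only MM5 among the male mutants and FM4 among the female mutants fell within the range of their controls. *Tgfb1* rose over both sexes by a log2 fold change of 0.75 (SE 0.152, adjusted p = 0.00129). The log2 fold change was 0.68 in males (SE 0.158, adjusted p = 0.0114) and 0.83 in females (SE 0.251, adjusted p = 0.0843). Without MM2 the male value passed (0.82, adjusted p = 0.00163), and without FM4 the female value did (0.98, adjusted p = 0.00921). Taken within litter A, B and C in turn, mutants exceeded controls in mean log2 CPM by 0.62, 1.06 and 0.26 in males and 1.14, 0.74 and 0.22 in females.

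*Tgfb2*, a TGF-beta ligand needed for heart, eye and kidney development, lies on chromosome 1 (186622792 to 186705989, minus strand). Its level was 3.15, 2.43, 3.67, 2.68 and 3.23 CPM in male controls and 8.22, 3.77, 5.31, 5.88 and 3.87 CPM in male mutants. It was 9.46, 8.51, 8.72, 11.4 and 9.54 CPM in female controls and 15.5, 12.3, 13.2, 4.88 and 8.98 CPM in female mutants. The male groups did not overlap, though MM2 (3.77) was barely above the highest control (3.67), and female mutants lay on both sides of their controls, with FM4 below them all. *Tgfb2* did not pass in males (log2 fold change 0.84, SE 0.245, adjusted p = 0.0332), in females (0.22, SE 0.262, adjusted p = 0.707) or over both sexes (0.48, SE 0.196, adjusted p = 0.0767). It passed in males without MM2 (1.01, adjusted p = 0.00741) and over both sexes without FM4 (0.60, adjusted p = 0.00638). Without MM1 the male value of *Tgfb2* was 0.52 (adjusted p = 0.136) and that over both sexes 0.33 (adjusted p = 0.219). The female value ranged from 0.08 without FM3 to 0.41 without FM4 (adjusted p = 0.12).

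*Tgfb3*, the third ligand, lies on chromosome 12 (86056745 to 86079041, minus strand) and was the least abundant of the 3. Its level was 1.47, 1.66, 1.95, 1.38 and 1.36 CPM in male controls and 7.65, 2.74, 3.54, 7.72 and 2.05 CPM in male mutants. It was 2.71, 2.45, 3.36, 3.70 and 3.56 CPM in female controls and 5.97, 6.59, 9.94, 2.31 and 4.76 CPM in female mutants. All male mutants lay above their controls, MM1 and MM4 by the most, and FM4 was the only female mutant not above its controls. *Tgfb3* rose over both sexes (log2 fold change 1.20, SE 0.265, adjusted p = 0.00258), with an adjusted p of 0.01, just short of the threshold, when MM1 was left out (1.00). It was 1.52 in males (SE 0.356, adjusted p = 0.0122; 1.78 and adjusted p = 0.00242 without MM2) and 0.96 in females (SE 0.354, adjusted p = 0.149). The female value was 0.64 without FM3 (adjusted p = 0.318) and 1.17 without FM4 (adjusted p = 0.0113). Exons of *Tgfb2* and *Tgfb3* share 124 bases (with *Gm29491*) and 163 and 257 bases (with *Gm37804* and *Gm48008*) with genes on the opposite strand, and whether counting used the strand was not given in the sources used here.

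*Tgfbr2*, the type II receptor that binds TGF-beta, lies on chromosome 9 (116084293 to 116175360, minus strand). Its level was 83.2, 92.8, 82.2, 98.5 and 97.4 CPM in male controls and 172, 122, 126, 142 and 137 CPM in male mutants. It was 88.2, 73.6, 91.2, 77.9 and 69.0 CPM in female controls and 133, 127, 202, 89.5 and 97.9 CPM in female mutants. The male groups were separate, and among the females only FM4 lay below the highest control. *Tgfbr2* rose in males (log2 fold change 0.61, SE 0.104, adjusted p = 0.00284) and over both sexes (0.67, SE 0.114, adjusted p = 3.28e-04). The male call was lost without MC3 (0.58, adjusted p = 0.0107), without MC4 (0.68, adjusted p = 0.0121) and with all 20 mice in 1 fit (0.61, adjusted p = 0.017). In females the log2 fold change was 0.73 (SE 0.201, adjusted p = 0.0609), 0.85 without FM4 (adjusted p = 0.00961) and 0.48 without FM3 (adjusted p = 0.0524). The within-litter differences of *Tgfbr2* were 0.75, 0.45 and 0.49 in males and 0.59, 0.71 and 0.50 in females, the narrowest range among the members called.

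*Tgfbr1*, the type I receptor that carries the signal, lies on chromosome 4 (47353222 to 47414931, plus strand) and did not pass. Its level was 72.2 to 93.7 CPM in male controls, 91.6 to 117 CPM in male mutants, 61.1 to 104 CPM in female controls and 81.8 to 129 CPM in female mutants. The log2 fold change was 0.26 in males (SE 0.0876, adjusted p = 0.0604), 0.15 in females (SE 0.12, adjusted p = 0.532) and 0.20 over both sexes (SE 0.0735, adjusted p = 0.055). The receptors thus differed in size of change as measured, but the difference between them was not tested.

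*Inhbb*, the activin beta-B subunit, lies on chromosome 1 (119415465 to 119422248, minus strand) and had the largest log2 fold change of the members called. Its level was 3.82, 4.92, 2.55, 2.43 and 4.26 CPM in male controls and 21.1, 7.26, 13.5, 19.1 and 6.71 CPM in male mutants. It was 3.37, 3.49, 5.30, 4.59 and 4.92 CPM in female controls and 20.8, 15.3, 20.9, 4.62 and 7.98 CPM in female mutants. All male mutants were above all male controls, and FM4 alone among the female mutants was within the control range. *Inhbb* rose in males (log2 fold change 1.83, 3.55-fold, SE 0.358, adjusted p = 0.00544) and over both sexes (1.74, 3.35-fold, SE 0.283, adjusted p = 2.01e-04). In females the log2 fold change was 1.68 (SE 0.395, adjusted p = 0.0343), and 1.92 without FM4 (adjusted p = 0.00246). The male call was lost when any of 7 mice was left out, with log2 fold changes of 1.82 without MC1 (adjusted p = 0.0163), 1.94 without MC2 (0.012), 1.71 without MC3 (0.0185), 1.56 without MC4 (0.0346), 1.38 without MM1 (0.0127), 1.84 without MM3 (0.0118) and 1.74 without MM4 (0.0103). Within the same litters mutants exceeded controls by 1.74, 2.66 and 0.64 in males and 2.58, 1.35 and 0.68 in females.

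*Inhba*, the activin beta-A subunit, lies on chromosome 13 (16011851 to 16031621, plus strand) and was at 1 to 3 counts in each male control. The counts were 1, 3, 2, 2 and 2 in male controls and 67, 15, 32, 23 and 6 in male mutants. In females they were 6, 8, 9, 9 and 3 in controls and 66, 51, 96, 13 and 17 in mutants. All mutants were above all controls of their sex, in CPM as in counts, with MM5 the lowest male mutant and FM5 the lowest female mutant in CPM (0.998, beside 1.11 in FM4). Summed over the 5 mice and scaled for depth, the ratio of mutants to controls was 12.6 in males (143 against 10 counts, exact 95% interval 6.63 to 26.7) and 6.54 in females (243 against 35 counts, 4.58 to 9.61), intervals that cover counting error only. The filter on low counts (minimum 10) kept *Inhba* out of the tests in males and over both sexes. All controls and mutant MM5 (6 counts) were below it, which left too few mice above. In females it passed the filter through the mutants alone, as every control was under 10 counts. Its log2 fold change there was 2.66 (SE 0.44, adjusted p = 0.0113), and 2.92 without FM4 (adjusted p = 6.27e-04). With no filter it was 3.54 in males (SE 0.54, adjusted p = 4.13e-04), 2.62 in females (adjusted p = 0.00696) and 2.94 over both sexes (SE 0.35, adjusted p = 3.93e-06), and DESeq2 gave 3.52 (adjusted p = 8.18e-06), 2.67 (adjusted p = 7.92e-06) and 2.99 (adjusted p = 8.7e-12). Where it was tested in males, only the fit without MC4 left it uncalled (adjusted p = 0.0133). On leaving out 1 male, *Inhba* entered a fit only through its counts in mutants, so those calls add no independent support.

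The BMP ligands were abundant and none passed in any comparison of genotypes. *Bmp4*, which lies on chromosome 14 (46383520 to 46390669, minus strand) and acts in ureter and nephron development, was 37.7 to 52.3 CPM in male controls, 34.5 to 40.0 in male mutants, 36.4 to 55.3 in female controls and 26.7 to 51.6 in female mutants. Its log2 fold change was −0.17 in males (SE 0.084, adjusted p = 0.193), −0.14 in females (SE 0.159, adjusted p = 0.688) and −0.16 over both sexes (SE 0.0922, adjusted p = 0.217). It was the only member with a negative value in all 3 comparisons.

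*Bmp6*, a ligand known for control of hepcidin in the liver, lies on chromosome 13 (38345107 to 38500302, plus strand). Its level was 52.2 to 71.5 CPM in male controls, 63.2 to 76.6 in male mutants, 57.0 to 65.6 in female controls and 55.0 to 82.4 in female mutants, where FM4 was the highest. The log2 fold change was 0.20 in males (SE 0.0907, adjusted p = 0.151), 0.11 in females (SE 0.112, adjusted p = 0.659) and 0.15 over both sexes (SE 0.0739, adjusted p = 0.152). *Bmp7*, on chromosome 2 (172868012 to 172940321, minus strand), is made by distal tubule, collecting duct and podocytes in the adult kidney. It was 43.6 to 46.5 CPM in male controls, 40.7 to 67.3 in male mutants, 42.0 to 52.8 in female controls and 35.5 to 60.1 in female mutants, so that mutants lay on both sides of the controls in each sex. Its log2 fold change was 0.22 in males (SE 0.095, adjusted p = 0.135), −0.04 in females (SE 0.0976, adjusted p = 0.869) and 0.08 over both sexes (SE 0.0769, adjusted p = 0.495). In males the unadjusted edgeR p of *Bmp7* was under 0.05, and 4 of 5 mutants were above every control. Exons of *Bmp4* and *Bmp6* share 89 bases with *Gm15217* and 224 bases with *Txndc5* on the opposite strand.

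Markers of some cell types, but not of all, differed between mutants and controls. The summed level of 10 macrophage markers (*Adgre1*, *Csf1r*, *C1qa* and others) was 132 to 165 CPM in male controls, 246 to 725 in male mutants, 171 to 215 in female controls and 187 to 977 in female mutants. All 10 were called higher over both sexes, where 10.0% of all genes tested were called higher and 5.86% lower. The sum of 10 fibroblast markers (*Col1a1*, *Pdgfra*, *Dcn* and others) was 257 to 324, 438 to 1220, 353 to 526 and 516 to 1600 CPM in the same groups, and 6 of the 10 were called higher. The 8 loop and distal tubule markers summed to 8730 to 9650 CPM in male controls against 5360 to 6760 in male mutants, and to 12500 to 13800 against 6040 to 9110 in females, with 7 of 8 called lower. Of 7 podocyte markers 5 were called lower, of 10 collecting duct markers 5 were lower, of 10 proximal tubule markers 1 was lower, and none of 8 endothelial and 7 lymphocyte markers tested was called over both sexes. At an unadjusted p under 0.05, 6 of the endothelial (2 higher, 4 lower) and 4 of the lymphocyte markers (all higher) differed, and lymphocyte markers summed to 5.57 to 27.6 CPM. These unadjusted counts were not set beside the share of all genes at that threshold. Without FM4, 3 of 7 lymphocyte markers (*Cd3d*, *Cd4* and *Cd79a*), 1 of 8 endothelial markers (*Pecam1*) and 7 of 10 fibroblast markers were called higher over both sexes, and 2 of 10 proximal tubule markers lower. In that run 12.5% of all genes were called higher, and 1204 of 14274 lower. The genes in parentheses were named after their values were seen. Adrenal markers summed to 3.85 to 7.99 CPM in all groups, with *Cyp11b2* at 0 counts in every library, and muscle and fat markers to 1.05 to 102 CPM. The defining proximal tubule markers of kidney summed to 8330 CPM or more in every library. The part of these cell types in the changes of *Tgfb1*, *Tgfb3*, *Tgfbr2*, *Inhba* and *Inhbb* was not tested.

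Whether the response to *Pkd2* loss differed between the sexes was tested by a sex-by-genotype term over all 20 mice. None of the 10 members was called by edgeR or by DESeq2, none had an unadjusted p under 0.05, and every adjusted p was 1. Over all 14820 genes 0% were called and 4.17% had an unadjusted p under 0.05. The term, the log2 fold change in males less that in females, was 0.65 for *Tgfb2* (SE 0.376), 0.59 for *Tgfb3* (SE 0.528), 0.89 for *Inhba* (SE 0.734) and 0.29 for *Bmp7* (SE 0.144). It was −0.11 for *Tgfb1* (SE 0.312), −0.08 for *Tgfbr2* (SE 0.232) and 0.19 for *Inhbb* (SE 0.577). These errors leave room for sex differences of 1 or more on the log2 scale in *Tgfb2*, *Tgfb3*, *Inhba* and *Inhbb*, so that an equal response of the sexes was not shown.

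Levels were also compared between the sexes within each genotype. In controls 2 of 9 members tested were called, *Tgfb2* and *Tgfb3*, both lower in males, against 9.02% of 14123 genes called lower and 8.75% called higher in males. *Tgfb2*, at 2.43 to 3.67 CPM in male controls and 8.51 to 11.4 in female controls, had a log2 fold change of −1.63 (SE 0.166, adjusted p = 1.9e-05), and its groups were far apart. *Tgfb3*, at 1.36 to 1.95 CPM against 2.45 to 3.70, had −0.99 (SE 0.23, adjusted p = 0.00653). That call was lost without any 1 of MC1 (−0.97, adjusted p = 0.0133), MC2 (−1.01, 0.0118), MC4 (−0.92, 0.0499), MC5 (−0.87, 0.0351), FC1 (−1.23, 0.0122), FC3 (−0.97, 0.0117), FC4 (−0.95, 0.0116) or FC5 (−0.87, 0.0369), while *Tgfb2* kept its call under each of these. *Inhba* summed to 10 counts in male controls and 35 in female controls and was not tested there. The other 7 members had log2 fold changes from −0.26 (*Tgfb1*) to 0.25 (*Tgfbr2*, adjusted p = 0.0777) and were not called.

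In mutants 0 of 10 members were called between the sexes, against 1.84% of 14416 genes called lower and 3.59% called higher in males. *Tgfb2*, at 3.77 to 8.22 CPM in male mutants and 4.88 to 15.5 in female mutants, was the only member with an unadjusted p under 0.05 (log2 fold change −1.08, SE 0.297, adjusted p = 0.0345), and DESeq2 called it alone (−1.07, adjusted p = 0.0053). It was called without FM4 (−1.24, adjusted p = 0.00313). The share of all genes at the unadjusted threshold was not computed for this comparison. *Tgfb3* was at −0.38 (SE 0.434, adjusted p = 0.584). Marker sums differed between control males and females too: podocyte markers lay at 269 to 421 CPM in males and 518 to 668 in females, endothelial markers at 315 to 384 and 438 to 544, and fibroblast markers at 257 to 324 and 353 to 526. Loop and distal markers lay at 8730 to 9650 CPM in males and 12500 to 13800 in females, and proximal tubule markers at 17400 to 18700 and 13400 to 15100. Their part in the sex difference of *Tgfb2* and *Tgfb3* was not tested.

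KBW was compared with the level of each member among the 10 mutants, as a measure of how far cystic enlargement had gone. No member was called, and 0% of 14416 genes were, at an adjusted p under 0.01. Pearson's r for *Tgfbr2* was 0.684 (permutation p = 0.0291, adjusted p = 0.265), with Spearman's rho at 0.782 (permutation p = 0.0105, adjusted p = 0.253). It was the only member with an unadjusted p under 0.05, where 5.40% of all genes had a positive r past that threshold. On leaving out 1 mutant at a time, r for *Tgfbr2* ranged from 0.555 to 0.901. Without MM1 and FM4, the mice farthest from the median KBW, r for *Tgfbr2* was 0.440, so the relation rests in part on these 2 mice. Leaving both out also narrows the range of KBW. For *Inhbb* r was 0.569 (permutation p = 0.0869, adjusted p = 0.402) with rho 0.479 (permutation p = 0.166, adjusted p = 0.565), and r was 0.185 without the same mice. The other 8 members had r between −0.041 (*Tgfb2*) and 0.398 (*Tgfbr1*), with permutation p-values from 0.252 to 0.968. Without MM1 and FM4 their r ran from −0.781 (*Bmp4*, 0.020 with all mutants) to 0.452 (*Tgfbr1*), and that of *Tgfb2* was −0.368.

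Male mutants had the higher KBW and female mutants the higher *Tgfb2*, so sex was also added as a covariate. With sex and litter in edgeR, 5 of 10 members had an unadjusted p under 0.05 with a positive slope, against 10.4% of all genes, and none was called after adjustment. The slopes, in log2 units per percentage point of KBW, were 1.06 for *Tgfb1* (SE 0.316, adjusted p = 0.0954), 1.38 for *Tgfb2* (SE 0.402, adjusted p = 0.0905), 0.87 for *Tgfbr2* (SE 0.281, adjusted p = 0.12), 2.20 for *Inhba* (SE 0.6, adjusted p = 0.0749) and 1.85 for *Inhbb* (SE 0.539, adjusted p = 0.0908). Those of *Bmp4* (0.14, SE 0.263), *Bmp6* (−0.13, SE 0.231) and *Bmp7* (−0.22, SE 0.195) were smaller than or close to their errors. Without these covariates the slope of *Tgfbr2* alone among the members had an unadjusted p under 0.05 (0.62, SE 0.236, adjusted p = 0.239). With 5 mutants in each sex, no correlation is given within a sex. Among the female mutants *Tgfb1*, *Tgfbr2* and *Inhbb* each followed the order of KBW, from FM4 (KBW 0.836%) through FM5, FM2 and FM1 to FM3 (1.46%). These genes were picked after their order was seen, the other members did not follow it, and FM4 is the library that stood apart. Among the male mutants MM1 had the highest KBW (2.15%) and the highest level of 7 of the 10 members, while MM5, with a KBW of 1.71%, had the lowest level of 5, *Tgfb1*, *Tgfb3*, *Inhba*, *Inhbb* and *Bmp6*. The orders within either sex were not tested or set beside those of all genes.

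**Figure D3:**
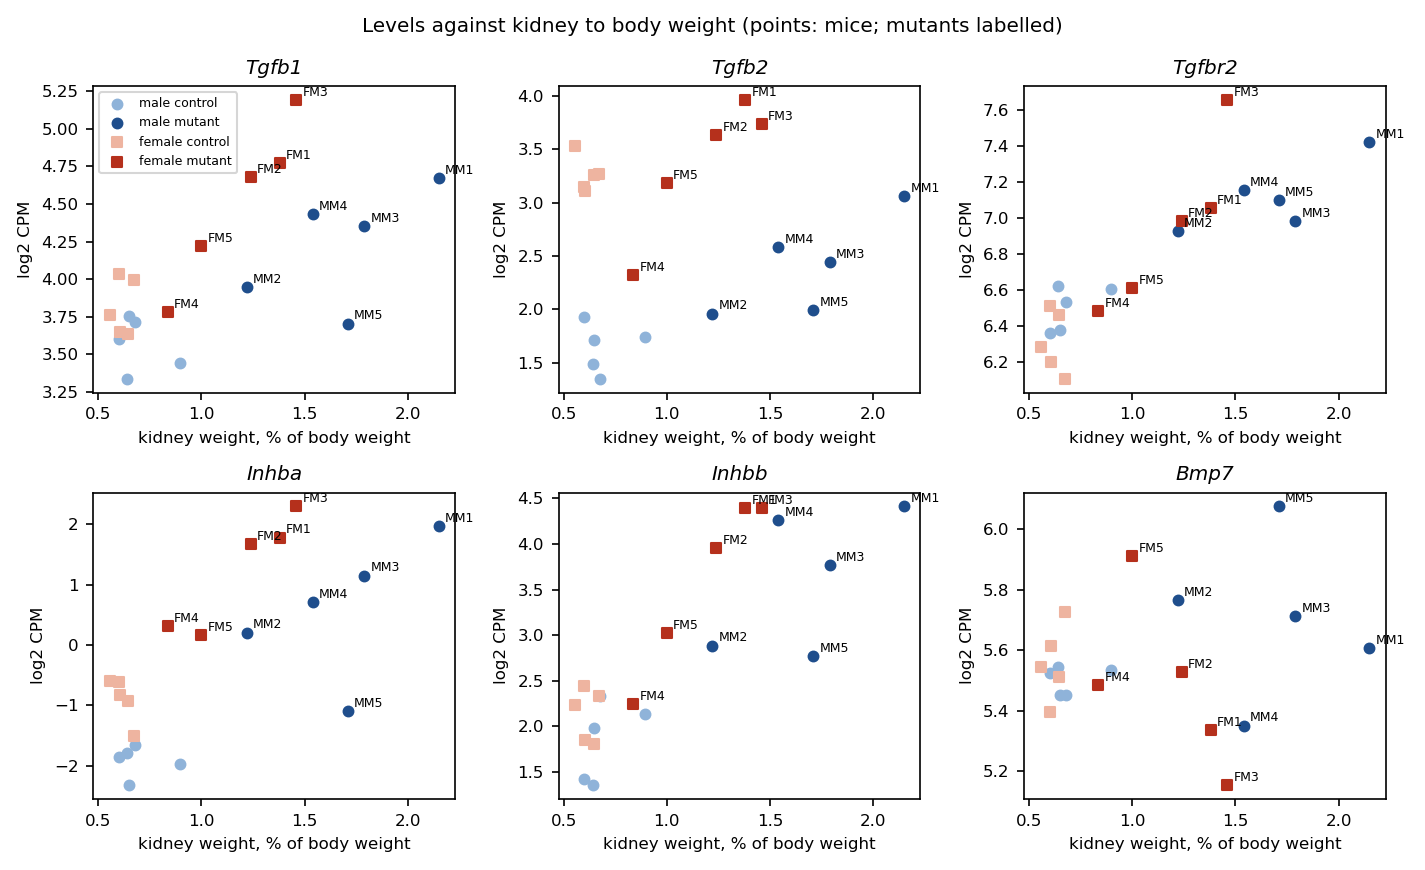
Level in log2 CPM (vertical axis) of 6 of the genes against kidney weight as a percentage of body weight (horizontal axis) in 20 mice (circles, males; squares, females; dark, mutants; light, controls). Mutants are named. Among female mutants *Tgfb1*, *Tgfbr2* and *Inhbb*, picked after their order was seen, follow KBW from FM4 at 0.836% to FM3 at 1.46%. MM5 at 1.71% lies low for *Tgfb1*, *Inhba* and *Inhbb*.

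The other genes of the pathway were taken from 7 lists with 83 genes. Over both sexes 64 of them were tested, and 17 were called higher and 2 lower, where 10.0% and 5.86% of all genes were. In males 13 were higher and 2 lower of 63 (5.25% and 3.20% of all genes). In females 2 were higher and 0 lower of 64 (0.457% and 0.180% of all genes). Without FM4 the counts were 12 higher and 0 lower of 64 in females (4.68% of all genes were higher, and 183 of 14595 lower). Over both sexes they were 20 higher and 5 lower of 64 (12.5% of all genes were higher, and 1204 of 14274 lower). Calls without FM4 in the lists below are to be read beside these shares. Genes that TGF-beta is known to induce held 8 of the 17 genes called higher over both sexes.

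Genes induced by TGF-beta made up the list with the most calls, 8 of 12 higher and none lower over both sexes, with 9 higher in males and 1 (*Ctgf*) in females, or 8 in females and 9 over both sexes without FM4. All 12 had positive log2 fold changes, with a median of 1.25 over both sexes. *Col3a1*, a fibrillar collagen, was 35.5 to 61.3 CPM in male controls, 119 to 411 in male mutants, 48.5 to 96.8 in female controls and 120 to 536 in female mutants. Its log2 fold change was 2.20 (SE 0.239, adjusted p = 6.41e-06), and that of *Col1a1*, the main fibrillar collagen of scar tissue, was 2.05 (SE 0.26, adjusted p = 2.46e-05). Every mutant was above every control for *Col3a1*, and in males for *Col1a1*. *Col1a1*, *Col3a1*, *Acta2* and *Postn* of this list are fibroblast markers too, so the list is not apart from the fibroblast sums above.

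Genes induced by BMP were not called: 0 of 6 tested rose or fell over both sexes, with a median of −0.09. At an unadjusted p under 0.05, 1 (*Id4*) was lower, a count not set beside the share of all genes at that threshold. Without FM4, 1 of the 6 was called lower, *Smad6* (−0.31, adjusted p = 0.0092). At 22.6 to 43.9 CPM in females and 11.9 to 26.2 in males, *Id1*, the best known of them, had a log2 fold change of −0.11 (adjusted p = 0.571). The groups of *Id1* overlapped between genotypes in each sex. In controls, 5 of these 6 genes were called lower in males (*Smad6*, *Id1*, *Id3*, *Id4* and *Atoh8*, where 9.02% of all genes were), with *Id1* at −1.19.

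Of the Smads, 2 of 8 were called over both sexes. *Smad2*, which carries the TGF-beta and activin signal, rose by 0.31 (SE 0.0765, adjusted p = 0.00569), and *Smad4*, the partner of all receptor-activated Smads, rose by 0.26 (SE 0.0498, adjusted p = 7.5e-04). In males their levels were 59.0 to 67.7 and 70.0 to 78.8 CPM in mutants against 46.0 to 55.8 and 55.4 to 65.0 CPM in controls, without overlap. *Smad3* (0.04, adjusted p = 0.8) and the inhibitory *Smad6* (−0.22, adjusted p = 0.152) and *Smad7* (−0.04, adjusted p = 0.717) were not called. Without FM4, *Smad6* (−0.31, adjusted p = 0.0092) and *Smad9*, a BMP Smad named after its value was seen (−0.59, adjusted p = 0.00736), were called lower, beside *Smad2* and *Smad4* higher.

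None of the 10 other receptors tested was called over both sexes, and 3 had an unadjusted p under 0.05 (*Acvr1b* and *Bmpr1b* lower, *Eng* higher). That unadjusted count was not set beside the share of all genes at that threshold. The log2 fold changes were −0.12 for the co-receptor *Tgfbr3* (adjusted p = 0.301), 0.14 for *Acvr1* (0.161), −0.19 for *Acvr1b* (0.0703), −0.05 for *Acvr2a* (0.644), 0.13 for *Bmpr1a* (0.151) and 0.03 for *Bmpr2* (0.823). *Eng*, the endothelial co-receptor endoglin, was the only one called in males (0.42, adjusted p = 0.00522), and was called over both sexes without FM4 (0.28, adjusted p = 0.00937); it is named here after its value was seen. Of the 7 other ligands tested, *Gdf15*, a stress-induced ligand, rose (0.91, SE 0.177, adjusted p = 9.35e-04) and *Gdf10*, also known as BMP3b, fell (−0.55, SE 0.11, adjusted p = 0.0012).

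Among 11 antagonists tested 4 were called higher and 1 lower over both sexes. In males alone 0 of 10 were called higher and 2 lower, *Chrdl1* (−1.02, adjusted p = 0.005) and *Sostdc1* (−0.44, adjusted p = 0.00905), while *Nbl1* (0.93, adjusted p = 0.0157), *Dcn* (0.57, adjusted p = 0.0161), *Twsg1* (0.31, adjusted p = 0.0427) and *Fst* (0.64, adjusted p = 0.118) did not pass. *Fst*, which encodes the activin-binding protein follistatin, was 7.38 to 15.4 CPM in male controls, 10.8 to 26.4 in male mutants, 13.8 to 21.1 in female controls and 18.3 to 43.5 in female mutants. Its log2 fold change was 0.83 (SE 0.187, adjusted p = 0.0029). *Nbl1*, a BMP antagonist of the DAN family (0.91, SE 0.219, adjusted p = 0.00457), and *Dcn*, the proteoglycan decorin that binds TGF-beta and is also a fibroblast marker (0.82, SE 0.152, adjusted p = 6.39e-04), rose too. *Twsg1* (0.30, adjusted p = 0.00429) was the fourth that rose, and *Chrdl1* (−0.69, adjusted p = 0.00432) fell, these and *Sostdc1* being named after their values were seen. The BMP antagonist *Nog* (0 to 1.85 CPM) was at −0.92 (adjusted p = 0.0648). *Grem1*, another BMP antagonist, was at 0 to 1.90 CPM and was not tested, with 12 counts in male controls, 66 in male mutants, 17 in female controls and 65 in female mutants.

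Of 11 genes for the binding and activation of latent TGF-beta 2 were called, both higher, and without FM4 3 were higher and 1 lower (*Thbs1* and *Furin*, named after their values were seen, were added). *Ltbp2*, a matrix protein of the latent TGF-beta binding family that is itself known not to bind latent TGF-beta, was 0.109 to 0.477 CPM in all controls, 1.93 to 15.2 in male mutants and 2.31 to 21.9 in female mutants. Every mutant was above every control, and the log2 fold change was 5.04 (SE 0.462, adjusted p = 1.9e-06). *Nrros*, which holds latent TGF-beta on macrophages and microglia, rose by 0.87 (SE 0.214, adjusted p = 0.00548), beside the macrophage sums given above.

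**Figure D4:**
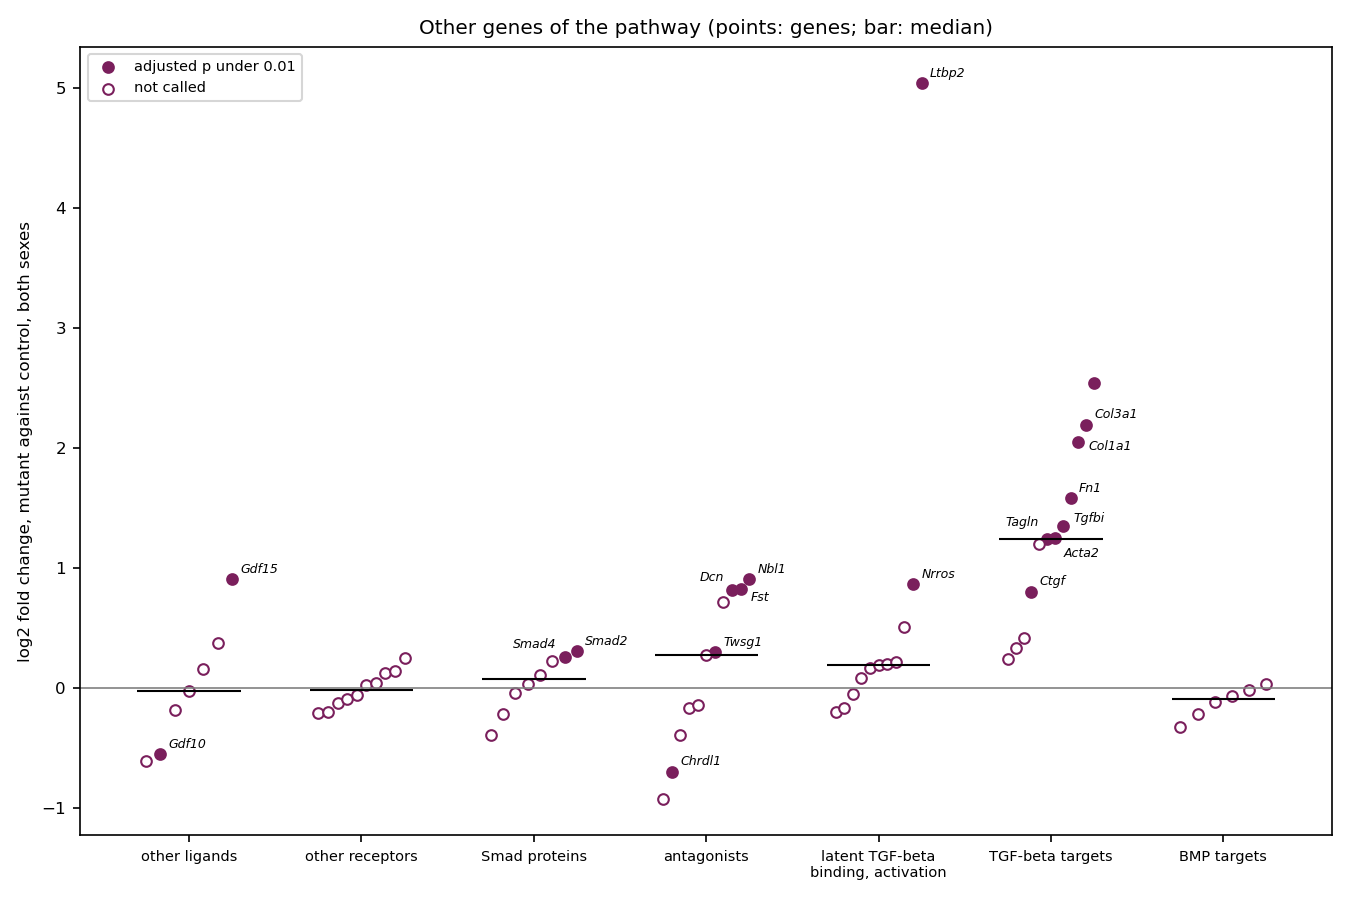
Log2 fold change of mutants against controls over both sexes (vertical axis) for the tested genes of 7 lists (horizontal axis), 1 point per gene and a bar at each list's median; filled points are adjusted p under 0.01. The TGF-beta targets lie above 0 with a median of 1.25, *Ltbp2* stands highest at 5.04, and the BMP targets lie near 0 with none called when all mice are kept.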

How the data were processed

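The authors trimmed reads with fastp 0.23.2, aligned them to mm10 with STAR 2.7.10b and deposited whole-number read counts per gene, not normalized. The counting tool, gene annotation and strand setting were not given in the sources used here. Each library was a separate mouse. The 10 genes and all gene lists were chosen with earlier results of these data known.

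Counts were fitted with edgeR 4.0.16 (TMM, filterByExpr with a minimum count of 10, prior count 2) in R 4.3.3: within a sex or genotype with litter as covariate, and over both sexes with sex-by-litter groups. DESeq2 1.42.0 (Wald test) was an alternative. KBW was the given kidney weight, taken as that of 1 kidney, as a percentage of body weight, and its correlations used 100000 permutations (Python 3.11.15, scipy 1.17.1). Scripts were tested on simulated data. Positions are from GENCODE M21 and promoters from RefSeq GRCm38.p6. Named genes were the members, *Pkd2*, fixed pathway genes, and up to 3 called genes per list with the largest change over both sexes and a mean of at least 1 CPM. A listed gene is counted in its list and not reported here.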

Additional observations from a re-analysis of the deposited data

Results flagged for a closer look

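In female controls *Tgfbr1* was 61.1 CPM in FC5, below the other 4 mice, of which the lowest was at 94.6 CPM. The gap was 0.781 of the group's range, above Dixon's critical value of 0.71 for 5 samples. It was the only one found among 40 groups of 5 mice (10 genes in 4 groups), and chance gives about 1 such group in 20.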

How the results depend on the processing

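No paired analysis was possible because the replicate numbers were given in accession order and pair no mice. Litter was the shared factor. Of the members called, the counts over both sexes (4), of the sex-by-genotype term (0) and of the relation with KBW (0) stayed within 1.5 times under each alternative run. In males the count of 2 became 5 with DESeq2's Wald test and 5 with no filter, and 0 (without MC4) to 5 (without MM2) when 1 mouse was left out. In females the count of 0 became 3 with DESeq2, 1 with no filter and 3 with all 20 mice in 1 fit, and 0 to 4 (without FM4) on leaving out 1 mouse. Between the sexes it went from 2 to 1 in controls with all 20 mice in 1 fit (1 to 2 on leaving out 1 mouse), and in mutants from 0 to 1 with DESeq2 and 1 with all 20 mice in 1 fit (0 to 1, the latter without FM4). These counts were not set beside the share of all genes called in each run, and the cause was not tested. The filter over the 4 groups and the lists without FM4 were chosen after seeing the data.

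Some small values changed sign. The *Bmp4* sex-by-genotype term (0.0087) was −0.0148 with DESeq2 size factors, −0.0131 with the Wald test, −0.0030 with at least 10 counts in every mouse, −0.0445 without litter and −0.0995 to 0.1227 on leaving out 1 mouse. On leaving out 1 mouse this term was −0.3308 to 0.1173 for *Tgfb1*, −0.281 to 0.1477 for *Tgfbr2* and −0.3112 to 0.5173 for *Inhbb*. The sex difference in controls was 1e-04 for *Bmp7* with the Wald test (−0.0612 to 0.0316 on leaving out 1 mouse), 0.0241 for *Bmp6* without litter (−0.1191 to 0.0158), −0.1547 to 0.0802 for *Tgfbr1* and −0.5169 to 0.0468 for *Inhbb*. In mutants it was −0.2986 to 0.0949 for *Inhbb* and −0.0141 to 0.1903 for *Bmp6*. Pearson's r with KBW ranged over −0.226 to 0.076 for *Tgfb2*, −0.564 to 0.311 for *Bmp4*, −0.312 to 0.529 for *Bmp6* and −0.133 to 0.24 for *Bmp7*. *Inhba*, at 1 to 3 counts per male control, and *Tgfb3* are limited by depth.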
